A study of Mus musculus with 14 samples.

Results

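Lymphocytes and other white blood cells are a minority in the liver, and their RNA enters a whole-liver extract together with that of the hepatocytes. The genes described here are 10 markers of such cells: Nkg7, Gzma and Gzmb of the cytotoxic granule, the chemokine gene Ccl5, the lymphocyte membrane protein gene Ms4a4b, Cd3d and Cd3g of the T cell receptor complex, the coreceptor genes Cd8a and Cd8b1, and Ptprc, which encodes the leukocyte phosphatase CD45. They were taken by gene symbol, with every probe set the array annotation assigns to them, which gave 12 probe sets for 10 of the 12394 genes on the array. Cd8a and Ms4a4b had a pair of probe sets each.

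The study measured liver RNA of C57BL/6J mice with diet-induced obesity on 14 arrays, 1 per sample. The groups were an adenovirus that carries a short hairpin RNA (shRNA) against Jnk1 (n = 5), an adenovirus with an shRNA against GFP, a protein that mice lack (n = 4), and vehicle (n = 5). The labels write Adv-shRNA, and Adv is read here as adenovirus. A short hairpin RNA is processed by the cell into a guide that lowers the matching messenger RNA. All groups share the strain and the diet-induced obesity, and the labels give no virus dose, time, age or sex. Samples are numbered within a group, but the labels do not tie a number to an animal, so the spread that the p-values rest on may be technical. The GFP virus differs from vehicle by the virus and by hairpin expression at once.

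Cytotoxic T cells and natural killer (NK) cells kill target cells by releasing granules that hold granzymes, and a T cell recognizes its target through a receptor that signals by way of the CD3 chains. CD8 marks the cytotoxic T cell lineage. In the liver such cells are known for clearing hepatocytes infected with virus. CD45 is carried by all nucleated blood cells, macrophages and Kupffer cells included.

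The deposited values were linear intensities. They were quantile normalized, set to at least 2.01 and log2 transformed, and differences were tested with limma over 13575 probe sets, each called at an adjusted p under 0.05. Mapk8, the gene of JNK1, stood at 67.1 with Jnk1 shRNA, against 167 with GFP shRNA and 177 with vehicle, with no overlap between the Jnk1 arrays and the others. GFP array 2 differed most from its group: its deposited median intensity was 58.3 (45.8 to 47.8 on the other GFP arrays), and its correlation with them averaged 0.942. It held the highest value of its group for 10 of the 12 probe sets. The bacterial spike-in level, in log2 units, was 7.89 to 8.76 on the Jnk1 arrays, 8.83 to 9.01 on the GFP arrays and 8.77 to 9.03 on the vehicle arrays, so it moved with the Jnk1 group.

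Most of these markers lay near background. As no detection call was used here, background was read from 131 probe sets of genes of smell, taste, hair, eye and other tissues. Their 95th percentile on an array, called the background level below, was an intensity of 29.8 to 33.0 on the Jnk1 arrays, 36.5 to 57.1 on the GFP arrays and 35.2 to 47.5 on the vehicle arrays. Probe sets differ in brightness, so this level describes the array and does not decide whether a gene is expressed. Of the 12 probe sets, 6 to 8 lay above it on each Jnk1 array, 2 to 5 on each GFP array and 1 on each vehicle array. Since the level itself was lowest on the Jnk1 arrays, the same count was taken against the highest level of any array, 57.1. It was then 3 to 5 with Jnk1 shRNA, 1 with GFP shRNA (4 on array 2) and 1 with vehicle. The probe set above background on every array was that of Ptprc.

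**Figure D1:**
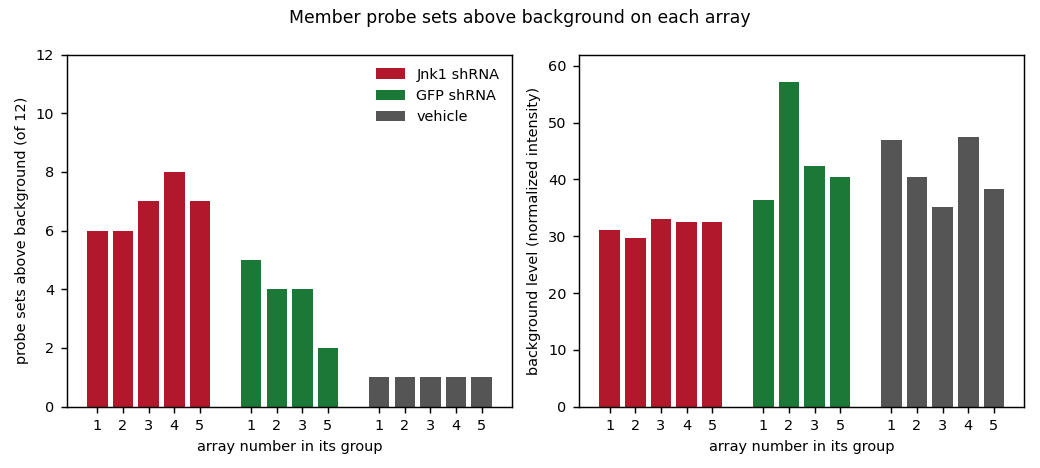
The left panel shows, for each array, how many of the 12 probe sets lay above that array's background level, and the right panel shows that level as a normalized intensity, the 95th percentile of 131 probe sets of non-liver genes. Bars are single arrays: the Jnk1 arrays held 6 to 8 such probe sets at levels of 29.8 to 33.0, the GFP arrays 2 to 5 and every vehicle array 1.

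Against vehicle, 8 of the 12 probe sets were higher with Jnk1 shRNA and 4 with GFP shRNA when all probe sets of the array were tested, and 0 were lower in either comparison. Over all 22626 probe sets, 11.9% were called higher and 10.7% lower with Jnk1 shRNA, and 1.01% higher and 0.217% lower with GFP shRNA. The median difference of the 12 was 1.67 with Jnk1 shRNA and 0.77 with GFP shRNA on the log2 scale, against medians of -0.03 and -0.01 over all probe sets. Both comparisons use the same vehicle arrays. Between the viruses, 1 of the 12 was higher with Jnk1 shRNA, Cd3d, where 9.98% of all probe sets were higher and 8.67% lower. The groups did not overlap for 8 of the 12 in the Jnk1 comparison with vehicle (9.81% of all probe sets, higher), for 5 in the GFP comparison with vehicle (2.53%) and for 1 between the viruses (10.1%). In bulk liver, more cells of a type and more RNA per cell cannot be told apart.

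In the limma fit used below, the 40% of probe sets with the lowest mean were left out, which kept 6 of the 12: Gzma, Gzmb, Nkg7, Ccl5, Ptprc and 1 of the Ms4a4b probe sets. Of these, 6 were called higher with Jnk1 shRNA than with vehicle (18.9% of all kept probe sets were) and 3 with GFP shRNA than with vehicle (2.05%). Between Jnk1 and GFP shRNA 0 of the 6 were called (33.1% of all, in either direction), 1 had an unadjusted p under 0.05, and the exact permutation test gave an unadjusted p under 0.05 for 2 of them. The lowest mean kept corresponded to an intensity of 28.4, and 5 of the 6 had a vehicle mean under it. These 5 passed through the virus groups, so their counts describe them and lend no support.

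**Figure D2:**
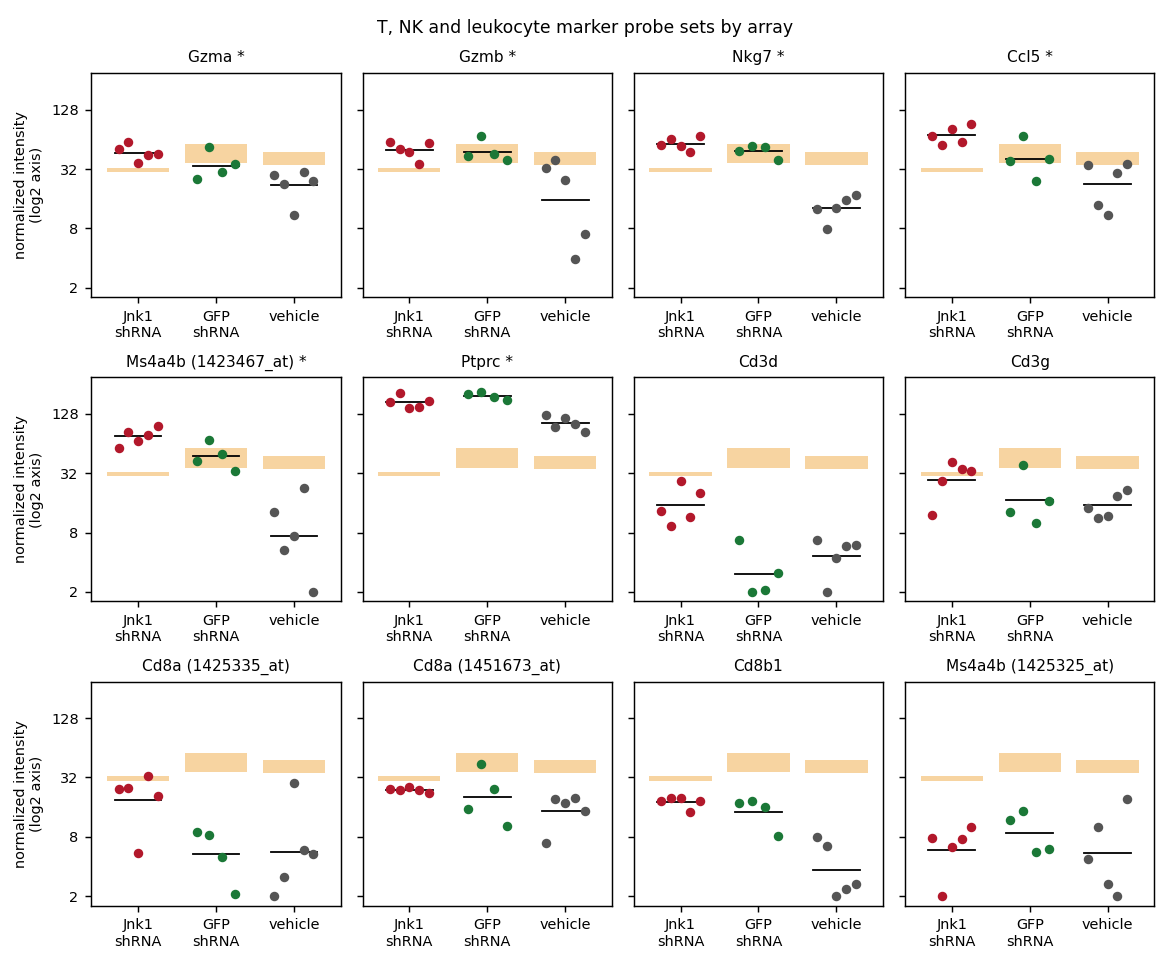
Each point is the normalized intensity of 1 array on a log2 axis, in 1 panel per probe set, with Jnk1 shRNA (n = 5), GFP shRNA (n = 4) and vehicle (n = 5) side by side. Black lines are means of the log2 values, shaded bands span the background level over the arrays of a group, and an asterisk marks the 6 probe sets kept by the filter. The 5 Nkg7 points of the vehicle group, 7.94 to 17.5, lie below all points of both virus groups, and the Ptprc points of all groups lie above the bands.

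Nkg7 encodes a membrane protein of the granules of NK cells and cytotoxic T cells. Its intensity was 55.5, 64.6, 55.5, 47.8 and 69.1 on the Jnk1 arrays, 49.3, 55.1, 53.6 and 39.8 on the GFP arrays, and 12.6, 7.94, 13.0, 15.6 and 17.5 on the vehicle arrays. Every array of both virus groups lay above every vehicle array. The log2 difference from vehicle was 2.17 ± 0.21 with Jnk1 shRNA (SE, adjusted p = 9.19e-07 in limma) and 1.93 ± 0.23 with GFP shRNA (adjusted p = 1.18e-04 in limma). All vehicle arrays lay below background, so the size is uncertain. The mean of the brighter group was also set against the background level, or the gene's own value where higher, on each dimmer array. This ratio, called fold over background below, was 1.40-fold with Jnk1 shRNA and 1.19-fold with GFP shRNA, where 2 of 4 arrays were above background. The ratio takes no account of the spread between arrays, so it is not a lower limit on the difference. Between the viruses the difference was 0.24 ± 0.23, with a 95% interval of -0.24 to 0.72 (adjusted p = 0.44 in limma).

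Gzma encodes granzyme A, a serine protease delivered into target cells. It stood at 51.1, 59.7, 36.6, 44.9 and 45.6 with Jnk1 shRNA, at 25.3, 53.1, 29.9 and 35.7 with GFP shRNA, and at 28.0, 22.5, 10.9, 30.1 and 24.2 with vehicle. The Jnk1 arrays all lay above the vehicle arrays, and the GFP arrays overlapped both. Gzma was higher with Jnk1 shRNA than with vehicle by 1.10 ± 0.28 (adjusted p = 0.00463 in limma), with a mean 1.13-fold over background. With GFP shRNA it gave 0.66 ± 0.29 against vehicle (adjusted p = 0.288 in limma), or 0.46 without GFP array 2. All GFP and vehicle arrays were below background for Gzma.

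Gzmb encodes granzyme B, the granzyme that activates caspases. Its values were 59.6, 50.8, 47.2, 35.6 and 58.4 with Jnk1 shRNA, 43.1, 68.8, 45.3 and 39.6 with GFP shRNA, and 32.4, 39.2, 24.7, 3.93 and 7.07 with vehicle. The vehicle arrays spread most, with arrays 4 and 5 far below the other 3, and array 2 of vehicle lay above array 4 of the Jnk1 group. The difference from vehicle was 1.68 ± 0.50 with Jnk1 shRNA (adjusted p = 0.0143 in limma) and 1.64 ± 0.53 with GFP shRNA (adjusted p = 0.135 in limma). The means were 1.20-fold over background with Jnk1 shRNA and 1.16-fold with GFP shRNA. With a term for the spike-in signal in the fit, the Jnk1 difference was 0.97 and lost its call (adjusted p = 0.447 in limma). Between the viruses Gzmb gave 0.04, with a 95% interval of -1.09 to 1.17 in the fit that shares its spread with the vehicle arrays, whose log2 SD for Gzmb was 1.46. With the virus groups fitted alone it was 0.04 with a standard error of 0.21 (adjusted p = 0.895 in limma).

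The 250 bases before the annotated transcription start are shown for these 3 granule genes. All 6 kept probe sets were called higher with Jnk1 shRNA than with vehicle, so the calls do not set the 3 apart. The sequences are from RefSeq (GRCm38.p6), 5′ to 3′ on the gene's strand. Capitals mark matches, on either strand, to RUNX (TGTGGT), T-box (AGGTGT) or interferon-response (GAAA, any 2 bases, GAAA), and no match overlapped another. NF-kB was searched too, as GGGA and CC with any 4 bases between them.
Nkg7, chr7:43436888-43437137, plus strand: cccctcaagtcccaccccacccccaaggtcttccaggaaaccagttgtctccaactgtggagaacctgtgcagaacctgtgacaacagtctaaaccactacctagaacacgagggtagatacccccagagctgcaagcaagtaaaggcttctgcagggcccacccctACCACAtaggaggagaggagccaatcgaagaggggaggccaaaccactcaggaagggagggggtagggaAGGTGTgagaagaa
Gzma, chr13:113100982-113101231, minus strand: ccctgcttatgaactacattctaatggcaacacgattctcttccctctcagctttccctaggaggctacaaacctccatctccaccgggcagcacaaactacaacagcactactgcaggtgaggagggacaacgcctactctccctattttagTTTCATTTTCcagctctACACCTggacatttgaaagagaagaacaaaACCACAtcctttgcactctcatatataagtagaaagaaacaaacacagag
Gzmb, chr14:56262335-56262584, minus strand: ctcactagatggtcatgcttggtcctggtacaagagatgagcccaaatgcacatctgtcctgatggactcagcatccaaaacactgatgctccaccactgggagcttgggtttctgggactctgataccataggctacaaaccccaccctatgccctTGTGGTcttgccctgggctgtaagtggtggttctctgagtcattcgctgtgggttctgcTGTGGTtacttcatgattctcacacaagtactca

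Windows were found for 8 of the 10 genes. Those of Ms4a4b and Ptprc, also called higher with Jnk1 shRNA than with vehicle, held 0 matches to any motif and are not shown. A RUNX match was present in 3 of the 8, which are the granule genes above, and in 14.05% of the 32851 windows of the same length in the table. A T-box match was present in 4 of the 8, Nkg7, Gzma, Cd3d and Cd3g, and in 11.8% of all windows. The interferon-response motif was matched in Gzma alone of the 8 (2.98% of all windows), and NF-kB in 0 of the 8 (17.6%). A match describes letters in a window and is not evidence of binding.

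Ccl5 encodes a chemokine that T and NK cells secrete and that attracts further leukocytes. It had intensities of 69.6, 56.3, 81.3, 59.9 and 91.4 with Jnk1 shRNA, 39.0, 69.4, 24.1 and 40.9 with GFP shRNA, and 34.8, 13.8, 10.98, 29.4 and 36.1 with vehicle. The Jnk1 arrays were all above the vehicle arrays, and GFP array 2 was the GFP array within the Jnk1 range. Ccl5 was higher with Jnk1 shRNA than with vehicle by 1.66 ± 0.34 (adjusted p = 0.00112 in limma), with a mean 1.70-fold over background. It gave 0.85 ± 0.36 with GFP shRNA against vehicle (adjusted p = 0.27 in limma).

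Between the viruses Ccl5 gave 0.80 ± 0.36, a 1.75-fold difference that did not pass (adjusted p = 0.102 in limma; exact two-sided permutation p = 0.0317, unadjusted). Without GFP array 2 it was 1.08 ± 0.37 and passed (adjusted p = 0.0367 in limma). It also passed with array weights, at 0.99, and when the 2 virus groups were fitted alone, at the same 0.80, with adjusted p-values of 0.0274 and 0.0353 in limma.

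Ms4a4b encodes a 4-pass membrane protein of the MS4A family found on T and NK cells. Its probe set 1423467_at stood at 58.4, 84.6, 68.7, 77.9 and 97.6 with Jnk1 shRNA, at 42.1, 69.9, 50.5 and 33.9 with GFP shRNA, and at 12.8, 5.36, 7.35, 22.5 and 2.02 with vehicle. All arrays of both virus groups were above all vehicle arrays, of which 1 was at the floor. The log2 difference from vehicle was 3.36 ± 0.47 with Jnk1 shRNA (adjusted p = 3.24e-05 in limma) and 2.67 ± 0.50 with GFP shRNA (adjusted p = 0.00671 in limma). The means were 1.84-fold over background with Jnk1 shRNA and 1.14-fold with GFP shRNA, where 3 of 4 arrays were above background. The GFP difference lost its call when GFP shRNA and vehicle were fitted alone (2.67, adjusted p = 0.0644 in limma).

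Between the viruses this probe set gave 0.69 ± 0.50 (adjusted p = 0.306 in limma, exact permutation p = 0.0397), and it passed when the virus groups were fitted alone (adjusted p = 0.0277 in limma). The second probe set of Ms4a4b, 1425325_at, was below background on all 14 arrays, with 2.01 to 9.97 with Jnk1 shRNA, 5.62 to 14.7 with GFP shRNA and 2.01 to 19.2 with vehicle. The groups overlapped. Fitted with all probe sets, this probe set gave 0.12 with Jnk1 shRNA and 0.68 with GFP shRNA against vehicle, and -0.56 between the viruses. None of these passed (adjusted p = 0.928, 0.74 and 0.622 in limma). The rise over vehicle of the other Ms4a4b probe set was thus not seen here. Lying below background on all 14 arrays limits what this shows, as it does for Cd3d and Cd8b1, which were called.

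**Figure D3:**
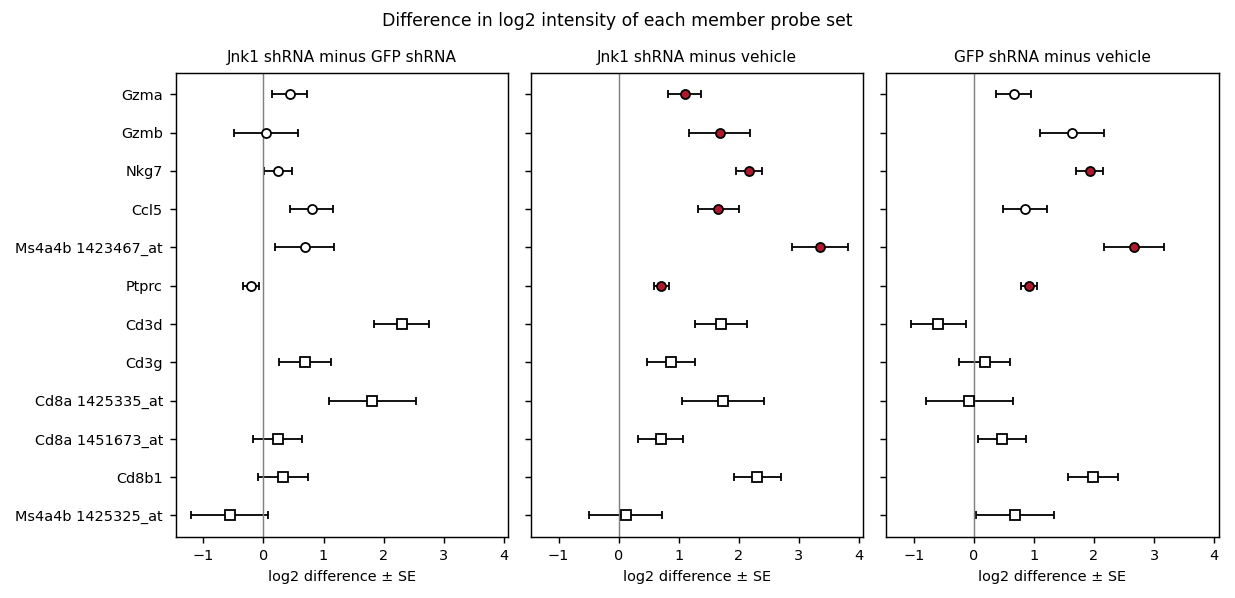
Differences in mean log2 intensity, with standard errors from limma, for the 12 probe sets in the 3 comparisons. Circles are the 6 kept probe sets, filled where called, and squares are the 6 below the filter, with errors from the fit of all probe sets. All 6 circles are filled for Jnk1 shRNA against vehicle, 3 for GFP shRNA against vehicle and 0 between the viruses.

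The T cell receptor and CD8 genes were all left out by the filter on low values. Cd3d, a signalling chain of the receptor complex, had 13.2, 9.44, 26.9, 11.4 and 20.3 with Jnk1 shRNA, 6.73, 2.01, 2.09 and 3.09 with GFP shRNA, and 6.75, 2.01, 4.46, 5.81 and 5.95 with vehicle. The Jnk1 arrays lay above all others, although all 14 values were below background. Fitted with all probe sets, Cd3d gave 2.30 ± 0.46 against GFP shRNA (adjusted p = 0.00241 in limma) and 1.71 ± 0.43 against vehicle (adjusted p = 0.00957 in limma). No bound on the fold can be set at this level.

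Cd3g, another chain of the complex, had 12.1, 26.9, 41.4, 35.4 and 33.5 with Jnk1 shRNA, 12.8, 39.2, 10.1 and 16.7 with GFP shRNA, and 14.3, 11.3, 11.9, 18.6 and 21.7 with vehicle. Jnk1 arrays 3, 4 and 5 were above background, and the groups overlapped. The difference from GFP shRNA was 0.69 and from vehicle 0.87, and neither passed in the fit of all probe sets (adjusted p = 0.315 and 0.152 in limma). Cd3d and Cd3g thus differed in whether the Jnk1 arrays separated from the rest, and this was not tested.

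Cd8a encodes the alpha chain of the CD8 coreceptor. Its probe set 1425335_at read 24.6, 24.7, 5.46, 32.9 and 20.9 with Jnk1 shRNA, 9.01, 8.39, 5.05 and 2.09 with GFP shRNA, and 2.01, 3.10, 28.0, 5.86 and 5.39 with vehicle. Jnk1 array 3 fell among the low values and vehicle array 3 among the high ones, and the differences of 1.81 from GFP shRNA and 1.74 from vehicle did not pass (adjusted p = 0.103 and 0.0866 in limma, all probe sets). The other Cd8a probe set, 1451673_at, was even on the Jnk1 arrays, at 22.2 to 25.3, against 10.2 to 44.2 with GFP shRNA and 6.89 to 19.99 with vehicle, all 14 below the background level of their array. Its Jnk1 arrays all lay above the vehicle arrays, with a difference of 0.70 that did not pass in limma (adjusted p = 0.228, all probe sets), and an exact permutation p of 0.00794 (unadjusted), the smallest that 5 against 5 arrays allow.

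Cd8b1 encodes the beta chain, which pairs with the alpha chain on cytotoxic T cells. It had 18.7, 19.97, 19.9, 14.2 and 18.3 with Jnk1 shRNA, 17.7, 18.5, 15.9 and 8.24 with GFP shRNA, and 7.93, 6.42, 2.01, 2.36 and 2.68 with vehicle. Both virus groups lay above every vehicle array, and all 14 values were below background. In the fit of all probe sets the difference from vehicle was 2.31 ± 0.40 with Jnk1 shRNA (adjusted p = 5.56e-04 in limma) and 1.98 ± 0.42 with GFP shRNA (adjusted p = 0.0323 in limma). With the lowest 20% of probe sets left out, the GFP difference did not pass (adjusted p = 0.0521 in limma). Between the viruses it was 0.33 (adjusted p = 0.666 in limma).

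Ptprc was the marker with a clear signal in all groups. Its intensity was 170.4, 208, 145, 150.0 and 172 with Jnk1 shRNA, 202, 212, 189.5 and 176 with GFP shRNA, and 124, 93.4, 116, 101 and 83.9 with vehicle. Every virus-treated array lay above every vehicle array. Ptprc was 1.64-fold higher with Jnk1 shRNA than with vehicle (0.71 ± 0.12, adjusted p = 2.43e-04 in limma) and 1.89-fold higher with GFP shRNA than with vehicle (0.92 ± 0.13, adjusted p = 6.62e-04 in limma).

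Between the viruses Ptprc gave -0.21 ± 0.13, lower with Jnk1 shRNA, with a 95% interval of -0.49 to 0.07 (adjusted p = 0.231 in limma). It is the 1 kept member with a lower mean in the Jnk1 group than in the GFP group, and the call was not passed under any alternative run. Its size depended on the scaling, at -0.04 when arrays were set to the same median.

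Other genes of the same cells were described from lists of their markers, using for each gene the brightest probe set that passed the filter. Of 24 further pan-leukocyte genes 23 were on the array and 18 were kept. With Jnk1 shRNA against vehicle 7 rose and 0 fell (18.9% and 18.7% of all kept probe sets), with a list median of 0.31. With GFP shRNA against vehicle 6 rose and 0 fell (2.05% and 0.53% of all), with a median of 0.50. Between the viruses 0 rose and 4 fell (17.3% and 15.8%), with a median of -0.23. The medians over all kept genes were -0.02 in each comparison.

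Cd52, which encodes a small surface glycoprotein of lymphocytes, averaged 133 with Jnk1 shRNA and 128 with GFP shRNA, against 53.1 with vehicle, and rose over vehicle by 1.33 ± 0.22 with Jnk1 shRNA and 1.27 ± 0.23 with GFP shRNA (adjusted p = 1.44e-04 and 0.00527 in limma). Cd48, a surface protein of white blood cells, rose over vehicle by 0.92 with Jnk1 shRNA and 0.84 with GFP shRNA. It was below background on every vehicle array, so these sizes are uncertain. Cd53, a leukocyte tetraspanin, rose by 0.38 with Jnk1 shRNA (a call lost in 4 of the 14 fits that leave out 1 array) and 0.90 with GFP shRNA over vehicle, and fell by 0.52 with Jnk1 shRNA relative to GFP shRNA (adjusted p = 0.00721 in limma).

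Lists restricted to T and NK cells held few measurable genes. Of 30 further genes of the T cell receptor and its signalling, 19 were on the array and 4 were kept. With Jnk1 shRNA over vehicle 1 rose and 0 fell (18.9% and 18.7% of all kept probe sets), so the count says little about T cell genes. The gene that rose was Thy1, a T cell surface protein also found on other cells, by 0.87 ± 0.31 (adjusted p = 0.0372 in limma). Its call was lost in 5 of the 14 fits that leave out 1 array (0.55 without vehicle array 2). Fyb, an adaptor of T cell signalling, gave 0.51 with Jnk1 shRNA (adjusted p = 0.0511 in limma) and 0.65 with GFP shRNA over vehicle, and passed without vehicle array 1 (0.70 for Jnk1 shRNA, 0.85 for GFP shRNA). Zap70, the kinase that binds the receptor chains, gave -0.37 with Jnk1 shRNA and -0.11 with GFP shRNA over vehicle. Icos, a costimulatory receptor, gave -0.43 with Jnk1 shRNA and 0.14 with GFP shRNA over vehicle, and was below background on every vehicle array. None of these differences passed the threshold. Without Jnk1 array 5, Zap70 was lower with Jnk1 shRNA than with vehicle by a log2 difference of -0.46 that passed (adjusted p = 0.0239 in limma), as it did without Jnk1 array 3 or GFP array 2.

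Of 16 further cytotoxic effector genes 2 were kept and 0 passed in any comparison. Over all kept probe sets 18.9% rose and 18.7% fell with Jnk1 shRNA against vehicle. With GFP shRNA against vehicle these shares were 2.05% and 0.53%, and between the viruses 17.3% and 15.8%. At such shares, 0 calls among so few genes, here or in the NK list below, says little. Prf1, which encodes the pore-forming protein of the granules, averaged 37.0 with Jnk1 shRNA, 44.5 with GFP shRNA and 45.8 with vehicle. Srgn, the proteoglycan core of the granules, averaged 224 with Jnk1 shRNA, 233 with GFP shRNA and 224 with vehicle. Of 25 NK cell genes 20 were on the array and 3 were kept. Klrk1, which encodes the activating receptor NKG2D, gave 0.27 with Jnk1 shRNA and 0.21 with GFP shRNA over vehicle, and Cd160 and Klrg1 gave -0.38 and -0.33 with Jnk1 shRNA, none past the threshold. Granzymes and Nkg7 were thus called in the Jnk1 comparison with vehicle while Prf1 and the NK receptors were not, and the difference between them was not tested. Prf1, at 28.6 to 46.8 on the Jnk1 arrays, and these NK genes lay near the background level, which limits what a missing call shows. The granzymes and Nkg7 passed the filter through the virus groups and were chosen with earlier results of these data known.

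Other chemokines that attract T and NK cells were read beside Ccl5. Cxcl9, induced by interferon gamma, stood at 169, 152, 193, 147 and 139 with Jnk1 shRNA, at 193, 1638, 287 and 233 with GFP shRNA, and at 124, 64.5, 97.3, 57.3 and 87.7 with vehicle. GFP array 2 was far above the other GFP arrays. It rose by 2.20 ± 0.45 with GFP shRNA over vehicle (adjusted p = 0.0131 in limma) and fell by 1.26 ± 0.45 with Jnk1 shRNA relative to GFP shRNA (adjusted p = 0.0411 in limma). Without GFP array 2 the difference between the viruses was -0.57 and did not pass (adjusted p = 0.0594 in limma), and it also lost its call without any 1 of the 5 Jnk1 arrays. Without that GFP array, Cxcl9 was higher with Jnk1 shRNA than with vehicle by 0.95 ± 0.19 (adjusted p = 8.28e-04 in limma), against 0.94 and no call with it. Cxcl10, of the same family, averaged 432, 415 and 202, and Cxcl11 30.6, 98.4 and 49.1, in the order Jnk1 shRNA, GFP shRNA and vehicle, and neither passed in any comparison. Cxcl11 passed without vehicle array 2, at -1.69 with Jnk1 shRNA relative to GFP shRNA and -1.44 relative to vehicle, and Cxcl10 without vehicle array 3, at 1.49 with Jnk1 shRNA over vehicle. Cxcl16, the ligand of a receptor on liver lymphocytes, fell by 0.48 with Jnk1 shRNA relative to GFP shRNA and by 0.52 relative to vehicle. The call of Cxcl16 between the viruses was lost in 6 of the 14 fits that leave out 1 array, and that relative to vehicle without Jnk1 array 4. Of the 7 kept genes of this list 0 rose and 2 fell between the viruses (17.3% and 15.8% of all kept probe sets).

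Of 10 relatives of Ms4a4b in the MS4A family 8 were on the array and 6 were kept. Over vehicle 4 rose with Jnk1 shRNA (18.9% of all kept probe sets) and 3 with GFP shRNA (2.05%), and 0 fell. Ms4a6b, present in T cells and macrophages, rose by 1.47 ± 0.19 with Jnk1 shRNA and 1.50 ± 0.20 with GFP shRNA, and Ms4a6c by 0.92 with Jnk1 shRNA and 1.13 with GFP shRNA. Ms4a6d, a macrophage member, rose by 0.72 with Jnk1 shRNA and 0.89 with GFP shRNA, the second of which lost its call in 6 of the 14 fits that leave out 1 array. Ms4a4c averaged 84.0 with Jnk1 shRNA, 33.5 with GFP shRNA and 18.8 with vehicle, and it rose with Jnk1 shRNA relative to GFP shRNA by 1.33 ± 0.25 (adjusted p = 6.68e-04 in limma), where Ms4a4b gave 0.69 and did not pass. On every vehicle array Ms4a4c and Ms4a6d were below background, so the sizes of their rises over vehicle are uncertain. How far probe sets of these similar genes share transcripts was not analysed here.

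**Figure D4:**
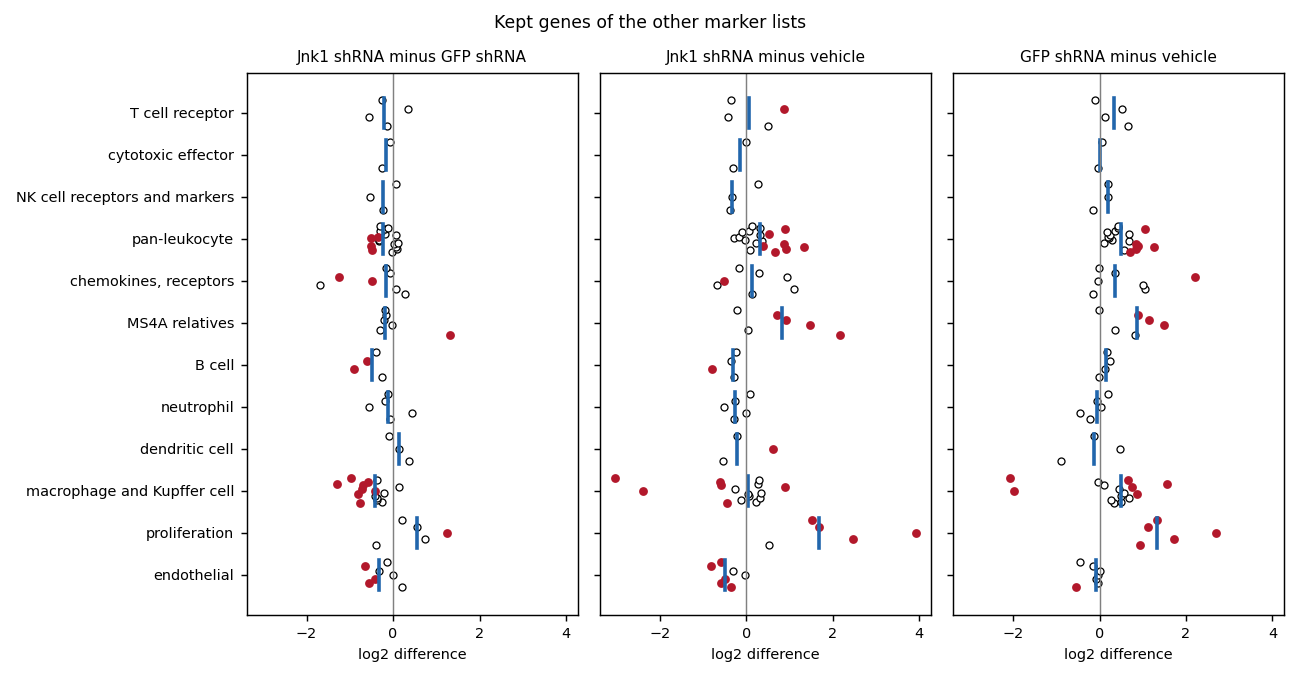
Each point is the difference in mean log2 intensity of 1 kept gene, grouped by marker list, in the 3 comparisons; filled red points were called at an adjusted p under 0.05 and blue bars are list medians. For pan-leukocyte genes 7 of 18 points are called higher for Jnk1 shRNA against vehicle and 6 for GFP shRNA against vehicle, while 4 are called lower between the viruses.

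Markers of other white blood cells that also carry CD45 moved with the groups. Of 19 macrophage and Kupffer cell genes 15 were kept. Over vehicle 1 rose and 5 fell with Jnk1 shRNA (18.9% and 18.7% of all kept probe sets), and 4 rose and 2 fell with GFP shRNA (2.05% and 0.53%). Between the viruses 0 rose and 8 fell (17.3% and 15.8%). Their summed intensity was 3670 to 4481 on the Jnk1 arrays, 5981 to 6936 on the GFP arrays and 3561 to 5979 on the vehicle arrays, so the list was highest in the GFP group, as Ptprc was. Mpeg1, a pore-forming protein of macrophages, averaged 545 with Jnk1 shRNA, 1339 with GFP shRNA and 455 with vehicle. Cd5l, secreted by macrophages, averaged 703 with Jnk1 shRNA, 1243 with GFP shRNA and 687 with vehicle. Vsig4 and Clec4f, both of resident Kupffer cells, averaged 41.4 and 81.0 with Jnk1 shRNA, 81.5 and 108 with GFP shRNA, and 340.2 and 428 with vehicle. The part of macrophages in the Ptprc and pan-leukocyte differences was not tested.

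Of 17 B cell genes 4 were kept. With Jnk1 shRNA 2 fell relative to GFP shRNA (15.8% of all kept probe sets) and 1 relative to vehicle (18.7%). Igk, an antibody light chain, fell with Jnk1 shRNA by 0.92 relative to GFP shRNA and by 0.79 relative to vehicle. Jchain, which joins antibody units, fell by 0.60 relative to GFP shRNA (adjusted p = 0.0113 in limma), while Ms4a1 (CD20) and Ighm did not pass. The Jnk1 values of Igk, 27.5 to 32.1, and of Jchain, 32.7 to 41.1, lay near the background level of their arrays. That level was lower than on the GFP and vehicle arrays, and its part in these falls was not tested. Of 13 neutrophil genes 5 were kept and 0 passed in any comparison. With Jnk1 shRNA over vehicle 18.9% of all kept probe sets rose and 18.7% fell, so 0 calls among so few genes says little. S100a8 averaged 56.3, 64.5 and 67.3 with Jnk1 shRNA, GFP shRNA and vehicle. Of 11 dendritic cell genes 3 were kept, and 1 rose with Jnk1 shRNA over vehicle (18.9% of all kept probe sets). It was Itgax, which encodes CD11c, with a rise of 0.61 (adjusted p = 0.0336 in limma). Its call was lost in 5 of the 14 fits that leave out 1 array (0.40 without vehicle array 3). In the same comparison Cd83 gave -0.53 and Zbtb46 -0.22.

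Some markers of other cells moved with the Jnk1 group too. Of 8 erythroid genes 1 was kept, Alas2, the heme synthesis enzyme of red cell precursors. It averaged 133 with Jnk1 shRNA, 536 with GFP shRNA and 544 with vehicle. With Jnk1 shRNA against vehicle 0 of 7 kept endothelial genes rose and 5 fell, and 0 of 8 kept hepatocyte genes rose and 5 fell (18.9% and 18.7% of all kept probe sets). The summed intensity of the endothelial list was 722 to 841 on the Jnk1 arrays, 921 to 1148 on the GFP arrays and 1069 to 1141 on the vehicle arrays. The other 2 endothelial and 3 hepatocyte genes were not called. Stab2, a scavenger receptor of sinusoidal endothelium, fell by 0.81 with Jnk1 shRNA relative to vehicle, and Hnf4a, a hepatocyte transcription factor, by 0.58. Of other hepatocyte genes Tat fell by 1.10, but Cyp2e1 by 0.20 and Apoa1 by 0.18. Tat and the endothelial gene Cdh5 were also lower with GFP shRNA than with vehicle (-0.69 and -0.55). These 2 calls were lost in 12 and 5 of the 14 fits that leave out 1 array. The part of these cells in the marker differences was not tested.

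Proliferation genes also moved with the virus groups. Of 10 such genes 5 were kept, and over vehicle 4 rose with Jnk1 shRNA (18.9% of all kept probe sets) and 5 with GFP shRNA (2.05%). For GFP shRNA the calls of Rrm2 and Top2a were lost in 11 and 4 of the 14 fits that leave out 1 array. Mcm6, a replication helicase subunit, averaged 215 with Jnk1 shRNA, 91.2 with GFP shRNA and 14.1 with vehicle, and Cdk1, the mitotic kinase, 88.4 with Jnk1 shRNA, 52.9 with GFP shRNA and 15.96 with vehicle. Their summed intensity was 561 to 921 on the Jnk1 arrays, 426 to 499 on the GFP arrays and 159 to 283 on the vehicle arrays. On every vehicle array Mcm6, Cdk1 and Top2a were below background, so the sizes of their rises over vehicle are uncertain. The cells that the proliferation transcripts came from cannot be told apart in bulk liver.

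Across the 14 arrays the kept members had Pearson r of 0.37 to 0.87 in their 15 pairs, and -0.53 to 0.65 after each group's mean was taken out. Nkg7 and Ms4a4b had 0.87 over all arrays and 0.11 within groups, and Nkg7 and Ptprc 0.86 and 0.20. The pair with the highest within-group r was Gzma and Ccl5, at 0.65 (0.86 over all arrays), followed by Ms4a4b and Ptprc at 0.54 (0.85), Nkg7 and Ccl5 at 0.48 (0.79), and Gzmb and Ptprc at 0.42 (0.74). Gzmb and Nkg7 had a within-group r of -0.53 against 0.57 over all arrays. All points share the array and its normalization, and these values are descriptions.

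The genes most like Nkg7 over the 14 arrays were Ehd4 (r = 0.96), a regulator of endosomal traffic, Ccna2 (0.94), which encodes cyclin A2, and Zbp1 (0.94), a sensor of nucleic acids induced by interferon. Their within-group r was 0.65, 0.13 and 0.36. Those most like Ptprc were Themis2 (0.95), an adaptor of B cells and macrophages, Laptm5 (0.94), a lysosomal protein of white blood cells, and Vim (0.94), which encodes vimentin. Those most like Ccl5 were Sorl1 (0.91), Trim25 (0.91), a ubiquitin ligase of antiviral signalling, and Napa (0.90), which acts in membrane fusion. The within-group r of these genes was 0.80 to 0.90. All the genes named here were picked for the highest r on these same arrays. Their r values, within groups too, are thus descriptions and lend no support.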

How the data were processed

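The deposited values were probe set intensities of 1-colour arrays on a linear scale, with no further processing given in the sources used here. The authors' deposited intensities had a 2% trimmed mean of 150.05 to 150.06 on every array, so the arrays were on 1 scale. Arrays were then quantile normalized, floored at the 5th percentile and log2 transformed. The 64 control probe sets and the lowest 40% of the other 22626 by mean over all arrays were left out. limma 3.58.1 in R 4.3.3 fitted 3 group means to all 14 arrays with an intensity trend and Benjamini-Hochberg adjustment over 13575 probe sets. The number of arrays limits the precision. No 2 arrays were copies, as at least 22688 probe sets differed between any pair.

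Symbols came from the platform annotation, in which 20393 probe sets had 1 symbol, 691 several and 1606 none. All 10 members matched RefSeq by gene identifier. Members and lists were chosen with earlier results of these data known. All members were named, with up to 4 genes of smallest p per list and the 3 genes most correlated with Nkg7, Ptprc and Ccl5.

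The fit was tested on simulated data. For the comparison between the viruses it recovered 29.9% of log2 changes of 0.5, 74.6% of changes of 1 and 98.5% of changes of 2. A small difference between the viruses could thus be missed. Other normalizations, filters, floors, variance models, array weights, group subsets, a replicate block, a spike-in covariate and leaving out each array were tried. Same-numbered arrays did not deviate together (correlations of -0.24 to 0.12), so the numbers were not taken as pairs.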

Additional observations from a re-analysis of the deposited data

Results flagged for a closer look

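In 36 groups of 4 or 5 arrays, 4 held an array whose gap to its nearest neighbour was large for the range of the group, where chance flags about 1 in 20 groups. Cd8a probe set 1425335_at was 5.46 on Jnk1 array 3, against 20.9 on the next lowest Jnk1 array. Cd8b1 was 14.2 on Jnk1 array 4, against 18.3 on the next lowest. The Ms4a4b probe set 1425325_at was 2.01 on Jnk1 array 2, at the floor, against 6.32 on the next lowest. Gzma was 10.9 on vehicle array 3, against 22.5 on the next lowest vehicle array. The first 3 concern probe sets left out by the filter on low values, and all 4 values lay below background. Leaving out vehicle array 3 left Gzma called in the comparison of Jnk1 shRNA with vehicle.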

How the results depend on the processing

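Over 27 settings, 474 log2 differences of the 12 probe sets were compared with the main fit. Of these, 463 kept their side of the threshold with no called change of direction, or moved by less than the replicate spread where untested. A difference that changed sign without a call in either fit is among them. Gzmb between the viruses, 0.04 in the main fit, reached -0.66 under another setting. The exact permutation test reuses the main difference, so its direction could not change. Of the rest, 4 lost a call, 4 gained one, 3 passed only by the unadjusted p of the exact permutation test, and 0 turned round with a call. Probe sets left out by the main filter were scored only with no filter or a milder one. Their differences cannot change between these settings, so their part of the count tests nothing. Cd8b1 with GFP shRNA against vehicle counted as kept, although it passed with no filter and not with the milder one. Fits in which a probe set fell below the filter were not counted for it. The count of kept members called higher with Jnk1 shRNA than with vehicle, 6, was 5 to 6 with any array left out and 1 (Ptprc, the 1 member kept) with the lowest 60% of probe sets left out. For GFP shRNA against vehicle the count of 3 was 2 to 3 with any array left out and 1 under that filter. Ms4a4b passed the filter in 6 of the 14 fits with an array left out. Between the viruses the count of 0 was 0 to 1 with any array left out (Ccl5 without GFP array 2), 1 with no filter (Cd3d), 1 with array weights (Ccl5) and 2 with only the 2 groups compared (Ccl5 and Ms4a4b).

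With the replicate number as a block, the GFP count was 1 and all calls in that comparison were 73 in place of 350; Nkg7 gave 2.00 and Ms4a4b 3.07 with adjusted p = 0.0956 and 0.0885 in limma. The numbers are not shown to pair the arrays. All calls for GFP shRNA against vehicle were 209 with only the 2 groups compared and 198 to 383 with any array left out (198 without GFP array 5). With a spike-in covariate all calls were 2172 in place of 4497 between the viruses and 2858 in place of 5099 for Jnk1 shRNA against vehicle. Adding 16 to every intensity rather than using a floor gave smaller differences from vehicle: for Ms4a4b 1.88 with Jnk1 shRNA and 1.35 with GFP shRNA, and for Nkg7 1.35 with Jnk1 shRNA and 1.16 with GFP shRNA, all still called. The cause of these changes was not tested, beyond the fewer probe sets or arrays in a fit. Signal near background limits all members but Ptprc. It also limits Cd48, Icos, Itgax, Thy1, Ms4a4c, Ms4a6d, Mcm6, Cdk1 and Top2a, which were below background on every vehicle array.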
